A study of Schizosaccharomyces pombe with 70 samples.

Results

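The uracil-responsive genes urg1 (SPAC1002.19), urg2 (SPAC1002.17c) and urg3 (SPAC1002.18) of the fission yeast Schizosaccharomyces pombe were followed through 120 min of hydroxyurea treatment in 5 strains. They were picked by their symbols in the annotation of the array probes, and they are 3 of the 4929 gene features on the array, each with 2 probes whose values were averaged. They had been singled out because earlier readings of the same arrays had shown their time course, so their levels, times of peak and strain differences are given here as a description, with the spread between samples and with no test. Asynchronous cultures grown at 30 °C received HU (hydroxyurea, 8 mM), which blocks the enzyme that makes deoxyribonucleotides and so slows DNA replication, and RNA was taken at 0, 10, 30, 60 and 120 min. The mutants were rad3 (14 samples after averaging), cds1 (15), chk1 (14) and the double mutant rad3 sep1 (5), and wild type had 13 samples. Rad3 is the upstream checkpoint kinase, Cds1 and Chk1 are the effector kinases below it, and Sep1 is a transcription factor of the forkhead family that acts on genes of cell division. No label gives the alleles, the auxotrophic markers or the medium. Every value is a log2 ratio of the sample to RNA of untreated wild type hybridised on the same 2-colour array, so 0 means the level of that common RNA. Treated cultures are set against the 0 min cultures of their own strain, and cultures kept for the same time without HU were not analysed here, so HU and time in culture cannot be told apart. Arrays of whole cultures also cannot tell a change per cell from a change in the share of cells that express a gene.

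The urg genes take their name from uracil, which raises the urg1 transcript within minutes when it is added to fission yeast cultures, and the urg1 promoter is widely used as a switch for this reason. The product of urg1 resembles GTP cyclohydrolase II, urg2 encodes a uracil phosphoribosyltransferase, which joins uracil to a ribose phosphate, and urg3 encodes a protein of a conserved family without a known activity. In the budding yeast Lachancea kluyveri the counterparts of these genes serve in the breakdown of uracil as a nitrogen source. In the RefSeq gene table for assembly ASM294v3 the genes lie next to each other on chromosome I in the order urg2, urg3, urg1.

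The strains matched their labels at the mutated genes, and 9 pairs of arrays were not independent. The level of rad3 averaged -2.20 ± 0.57 in rad3 mutants (SD, n = 14) and -2.36 in rad3 sep1, against -0.18 in wild type. The cds1 level averaged -2.45 in cds1 mutants and 0.29 in wild type, the chk1 level -1.37 in chk1 mutants and -0.53 in wild type, and the sep1 level -3.54 in rad3 sep1 and -0.09 in wild type. In 9 of 65 pairs of arrays of a group, which included all 5 pairs of rad3 sep1, what set the arrays apart on one probe of a gene was not seen on the other probe, and each such pair was counted as 1 sample. Every time of rad3 sep1 is therefore a single sample with no spread of its own. The spread of all log2 ratios on an array widened with time, with a median SD of 0.307, 0.345, 0.374, 0.408 and 0.494 at the 5 successive times.

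The urg1 transcript was higher than at 0 min in every treated sample of every strain. Its log2 ratio in rad3 mutants was 0.35, 0.36 and 0.35 at 0 min, 2.28, 2.47 and 1.81 at 10 min, and 2.17, 2.93 and 2.24 at 30 min. Later it read 1.38 and 1.86 at 60 min and 1.75, 2.31 and 1.74 at 120 min. The rad3 samples at 10 and 30 min overlapped, as did those at 60 and 120 min, and all those at 60 min lay below all those at 30 min. In cds1 mutants urg1 was at -0.17, -0.14 and -0.10 at 0 min, 2.12, 2.01 and 1.85 at 10 min, and 2.14, 2.56 and 2.33 at 30 min. Later it read 1.13, 1.01 and 0.91 at 60 min and 1.52, 1.85 and 1.42 at 120 min. Both strains were highest at 30 min and lower at 60 min, and in cds1 mutants no sample at 60 min reached any sample at 10, 30 or 120 min. In chk1 mutants urg1 was at -0.54, -0.37 and -0.30 at 0 min, 1.29, 1.06 and 0.70 at 10 min, and 1.06, 1.40 and 0.98 at 30 min. Later it read 0.67 and 0.48 at 60 min and 1.34, 1.48 and 1.12 at 120 min. The single samples of rad3 sep1 gave 0.14, 2.22, 1.99, 1.28 and 3.05 at the 5 successive times. In both of these strains 120 min was the highest time, in chk1 mutants with values that overlap those at 30 min. In wild type urg1 was at -0.29, -0.40 and -0.29 at 0 min, 0.93, 1.68 and 1.13 at 10 min, and 1.55 and 1.53 at 30 min. Later it read 0.74 and 0.81 at 60 min and 1.12, 1.78 and 0.97 at 120 min. The wild-type samples at 60 min lay below all those at 10, 30 and 120 min, and one 120 min sample stood above both 30 min samples.

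The urg2 transcript followed urg1 at a greater distance from 0 min. Its log2 ratio in rad3 mutants was 0.52, 0.63 and 0.06 at 0 min, 2.68, 3.02 and 2.65 at 10 min, and 2.55, 3.07 and 2.95 at 30 min. Later it read 2.10 and 2.50 at 60 min and 2.27, 2.39 and 2.09 at 120 min. The rad3 samples at 60 and 120 min overlapped, so urg2 showed no separate low at 60 min there. In cds1 mutants urg2 was at -0.17, -0.32 and 0.08 at 0 min, 2.21, 2.54 and 2.42 at 10 min, and 2.70, 2.72 and 2.65 at 30 min. Later it read 1.77, 1.72 and 1.62 at 60 min and 2.29, 2.00 and 2.27 at 120 min. The cds1 samples at 60 min lay below those at all other treated times. In chk1 mutants urg2 was at -0.12, -0.58 and -0.47 at 0 min, 1.89, 1.18 and 1.46 at 10 min, and 2.18, 1.72 and 1.62 at 30 min. Later it read 0.80 and 1.13 at 60 min and 1.75, 1.63 and 1.72 at 120 min. The rad3 sep1 samples had -0.51, 2.10, 1.66, 1.23 and 2.95 at the 5 times. The chk1 values at 30 and 120 min overlapped, and the rad3 sep1 value at 120 min was its highest. In wild type urg2 was at 0.08, -0.49 and -0.01 at 0 min, 1.90, 1.87 and 1.85 at 10 min, and 2.12 and 2.44 at 30 min. Later it read 1.47 and 1.85 at 60 min and 1.71, 2.44 and 1.50 at 120 min. The wild-type samples at 60 and 120 min overlapped.

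The urg3 transcript stayed within a narrow band. Its highest mean was 0.57 ± 0.03 in rad3 mutants (SD, n = 3), 0.48 ± 0.09 in cds1 mutants (n = 3), 0.23 ± 0.28 in chk1 mutants (n = 3) and 0.45 ± 0.09 in wild type (n = 2), all at 30 min, and 0.46 in the rad3 sep1 sample at 120 min. At 0 min the urg3 means lay between -0.09 in rad3 sep1 and 0.08 in rad3 mutants. Samples of chk1 mutants at 30, 60 and 120 min, and those of rad3 and cds1 mutants at 120 min, overlapped the 0 min samples of their strain.

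**Figure D1:**
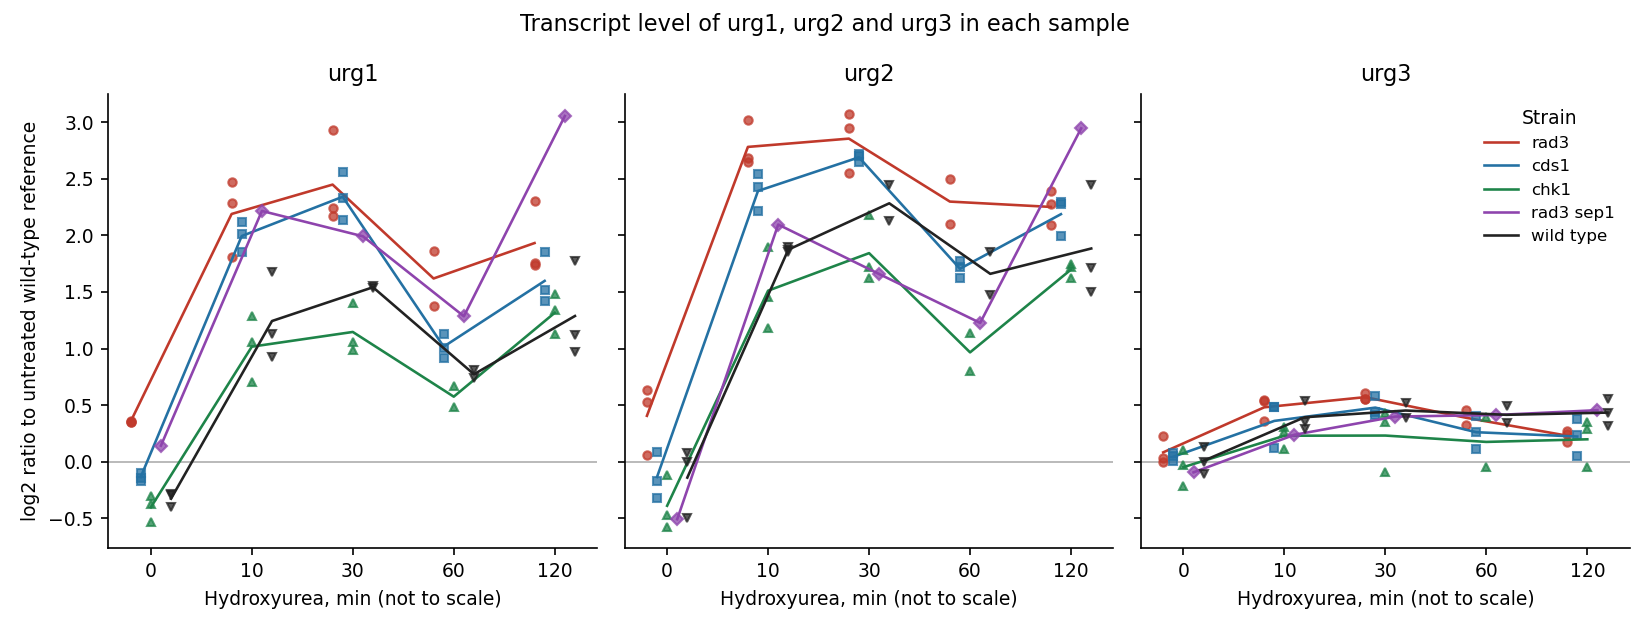
Log2 ratio to untreated wild-type RNA (vertical axis) of urg1, urg2 and urg3 at 0, 10, 30, 60 and 120 min of hydroxyurea (horizontal axis, not to scale) in the rad3, cds1, chk1, rad3 sep1 and wild-type strains. Points are samples and lines join group means. The urg1 and urg2 values at 10 min are above those at 0 min in every strain, most lines dip at 60 min and urg3 reaches at most 0.60.

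Over both early times, 10 and 30 min, urg1 was above 0 min by a log2 difference of 1.97 ± 0.17 in rad3 mutants, 2.30 ± 0.17 in cds1 mutants, 1.48 ± 0.17 in chk1 mutants, 1.96 ± 0.29 in rad3 sep1 and 1.72 ± 0.17 in wild type (± SE of the fit here and below). The urg2 difference was 2.41 ± 0.16 in rad3 mutants, 2.68 ± 0.16 in cds1 mutants, 2.07 ± 0.16 in chk1 mutants, 2.39 ± 0.28 in rad3 sep1 and 2.22 ± 0.17 in wild type, which is 4.19-fold in chk1 mutants and 6.40-fold in cds1 mutants. For urg3 the early difference lay between 0.28 ± 0.11 in chk1 mutants and 0.44 ± 0.11 in rad3 mutants. Late values, averaged over 60 and 120 min, were above 0 min for urg1 by 1.42 ± 0.17 in rad3, 1.44 ± 0.17 in cds1, 1.35 ± 0.17 in chk1, 2.03 ± 0.29 in rad3 sep1 and 1.36 ± 0.17 in wild type. For urg2 they were above it by 1.87 ± 0.17 in rad3, 2.08 ± 0.16 in cds1, 1.72 ± 0.17 in chk1, 2.59 ± 0.28 in rad3 sep1 and 1.91 ± 0.17 in wild type. The urg1 and urg2 means were lower late than early in rad3, cds1, chk1 and wild type and higher late in rad3 sep1, where late minus early was 0.07 ± 0.23 for urg1 and 0.21 ± 0.23 for urg2. Quantile normalization between arrays turned the order round in rad3 sep1 for both genes. On single probes the urg1 order was turned round in chk1 mutants on the first probe (0.86 late and 0.81 early) and in rad3 sep1 on the second (2.29 late and 2.51 early).

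In the 4 strains with replicates, every sample of urg1 and of urg2 at every treated time lay above every 0 min sample of its strain. Over all 4921 features tested, the same separation was met at 10 min by 8.19% in rad3, 5.67% in cds1, 5.91% in chk1 and 5.14% in wild type, and at 30 min by 10.4% in rad3, 8.45% in cds1, 10.1% in chk1 and 20.3% in wild type. It was met at 60 min by 18.7% in rad3, 11% in cds1, 16.6% in chk1 and 24.5% in wild type, and at 120 min by 19.8% in rad3, 18.1% in cds1, 23.6% in chk1 and 20% in wild type. The members had been picked with these contrasts known, so nothing is read from this comparison. In rad3 sep1, with 1 sample a time, 52.7%, 71.4%, 57% and 49.7% of features lay above their 0 min value at the 4 treated times.

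The time of the highest mean was 30 min for urg1 in rad3, cds1 and wild type and for urg2 in rad3, cds1, chk1 and wild type. It was 120 min for urg1 in chk1 mutants and for both genes in rad3 sep1. Neighbouring times in this order were often not separated: samples at 30 min overlapped those at 10 min in rad3 mutants for both genes and those at 120 min in wild type for both genes. In cds1 mutants every 30 min sample was above every 10 min sample for both genes. For separations between treated times, here and above, the share over all features was not counted. They are given as description only. Followed by replicate number, with rad3 sep1 as 1 series, urg1 was highest at 10 min in 1 of 13 series, at 30 min in 7 and at 120 min in 5. The urg2 transcript was highest at 10 min in 1 series, at 30 min in 9 and at 120 min in 3. In 7 of the series an averaged value is shared with another series of the strain. A low at 60 min was found in more series than any one time of peak. The value at 60 min was lower than those at both 30 and 120 min in 13 of 13 series for urg1 and in 10 of 13 for urg2. After quantile normalization the mean at 60 min was below both for urg1 in cds1, chk1, rad3 sep1 and wild type, and for urg2 in chk1 and rad3 sep1. The difference of 60 minus 30 min for urg1 was -0.83 ± 0.21 in rad3 mutants, -1.32 ± 0.19 in cds1 mutants, -0.57 ± 0.21 in chk1 mutants, -0.71 ± 0.33 in rad3 sep1 and -0.77 ± 0.23 in wild type. The difference of 120 minus 60 min was 0.31 ± 0.21 in rad3, 0.58 ± 0.19 in cds1, 0.74 ± 0.21 in chk1, 1.77 ± 0.33 in rad3 sep1 and 0.51 ± 0.21 in wild type. The time of the peak depended on the scaling of the arrays. After quantile normalization between arrays, which forces the widening spread at late times onto 1 distribution, the highest time was 10 min for urg1 in rad3, cds1, chk1 and rad3 sep1 and for urg2 in rad3, cds1, rad3 sep1 and wild type, and 120 min was highest for neither gene in any strain. Single probes also moved it: on the second probe alone urg1 in chk1 mutants was highest at 30 min and urg2 in chk1 mutants at 120 min, and on the first probe alone urg2 in rad3 mutants was highest at 10 min.

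The strains differed in level before they were treated, mostly in rad3 mutants. At 0 min urg1 was higher in rad3 mutants than in wild type by 0.68 ± 0.19, in cds1 mutants by 0.19 ± 0.19 and in rad3 sep1 by 0.47 ± 0.27, and in chk1 mutants the difference was -0.08 ± 0.19. All rad3 and all cds1 samples lay above all wild-type samples at 0 min, a separation met by 4.9% of features in rad3 and by 6.52% in cds1, and the chk1 samples overlapped wild type. For urg2 the untreated difference from wild type was 0.55 ± 0.19 in rad3 mutants, 0.01 ± 0.19 in cds1 mutants, -0.25 ± 0.19 in chk1 mutants and -0.37 ± 0.27 in rad3 sep1, with samples of rad3 overlapping wild type. Treated levels differed between the strains as well. At 30 min the urg1 level in rad3 mutants was 0.91 ± 0.21 above wild type. Its change since 0 min exceeded that of wild type by 0.23 ± 0.29 on the mean of the 2 probes, which disagreed. On the first probe alone this change was 1.70 in rad3 mutants and 0.97 in wild type, and on the second 2.49 and 2.77. In cds1 mutants the level at 30 min was 0.80 ± 0.21 above wild type and the change 0.61 ± 0.29 larger. In chk1 mutants the level at 30 min differed from wild type by -0.40 ± 0.21 and the change by -0.32 ± 0.29. In rad3 and chk1 mutants the difference in change was close to its SE or below it, and in cds1 mutants it was larger than its SE. The order of the strains depended on the scaling. After quantile normalization the urg1 change at 30 min was 1.73 in rad3, 2.48 in cds1 and 1.81 in chk1 mutants, and 2.30 in wild type.

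At 120 min, in the ratios without further scaling, rad3 sep1 stood apart from the other strains for urg1 and urg2. Its change since 0 min was larger than that of wild type by 1.30 ± 0.38 for urg1 and by 1.43 ± 0.38 for urg2, and larger than that of rad3 mutants by 1.34 ± 0.38 for urg1 and by 1.61 ± 0.38 for urg2. The rad3 sep1 changes at 10, 30 and 60 min differed from those of rad3 mutants by -0.28 to 0.24 for both genes, with SE of 0.38 or 0.39. For urg3 the difference from rad3 mutants at 120 min was 0.40 ± 0.25. The gap of rad3 sep1 rests on 1 sample, whose 2 arrays had the widest spread of all log2 ratios (SD 0.733 and 0.734, against 0.495 to 0.562 in rad3 and 0.466 to 0.488 in wild type at that time), and the part of this spread in it was not tested. Under quantile normalization the rad3 sep1 changes at 120 min were 1.59 for urg1 and 2.12 for urg2, below its own changes at 10 min of 2.18 and 2.67. The urg1 change at 120 min was then 1.49 in chk1 mutants and 1.43 in wild type, close to rad3 sep1. It was 1.29 in cds1 mutants and 0.79 in rad3 mutants. For urg2 the change was 1.82 in chk1, 1.62 in cds1 and 0.87 in rad3 mutants, and 1.58 in wild type.

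The 2 probes of urg1 and of urg2 ran in parallel over the groups more closely than those of urg3, though their time of peak differed in some strains. Over the 25 group means their values correlated with r = 0.888 for urg1, 0.969 for urg2 and -0.296 for urg3, against a median of 0.730 over all features, and 2.26% of features had a lower r than urg3. These points share arrays and the 0 min starting level, and r is given as a description. The second probe of urg1 showed the larger early difference from 0 min, 2.16 to 2.99 across strains, and the first 0.81 to 1.62. For urg3 the second probe was above 0 min early by 0.63 to 1.06 and the first by -0.17 to 0.19, so the urg3 increase was carried by 1 probe. The higher untreated urg1 level of rad3 mutants was likewise seen on the second probe, with 0.89 in rad3 mutants and -0.30 in wild type, while the first probe read -0.18 in rad3 mutants and -0.36 in wild type. The sequences and strands of the probes were not used here, and the RefSeq table places non-coding RNA genes over urg3 and urg1, so the signal of overlapping transcripts cannot be told apart from that of the genes.

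**Figure D2:**
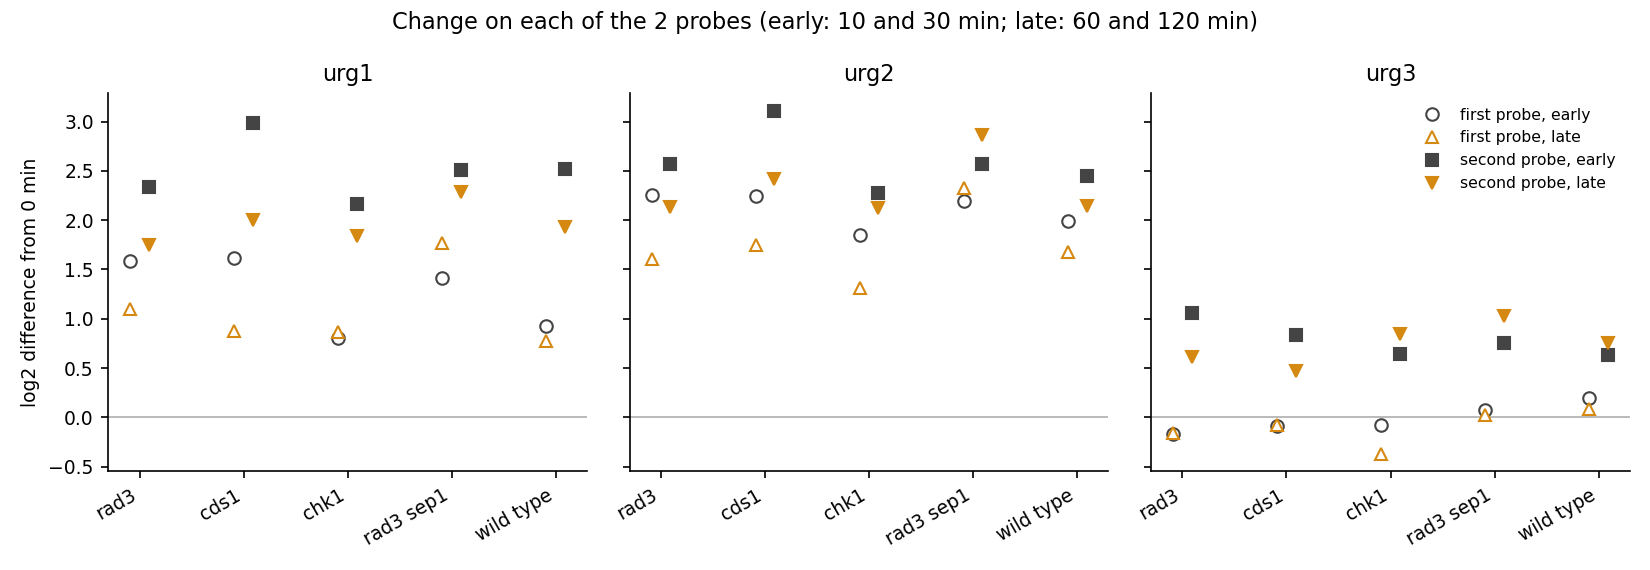
Log2 difference from 0 min (vertical axis) on the first probe (open symbols) and the second probe (filled symbols) of urg1, urg2 and urg3 in 5 strains (horizontal axis), early (10 and 30 min, grey) and late (60 and 120 min, orange). Both probes are well above 0 for urg1 and urg2. For urg3 the first probe lies between -0.37 and 0.19 and the second between 0.47 and 1.06.

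Among all 4921 features tested, urg2 had the largest and urg1 the second largest early increase in each of the 5 strains (ranks 1 and 2). Late, urg2 ranked between 2 and 6 and urg1 between 8 and 24, and urg3 ranked 32 to 203 early and 346 to 1002 late. Few genes with increases of this size peaked early. In rad3 mutants 78 features were at least 1 above 0 min at some time, and 74 of these were highest at 120 min. In cds1 mutants 88 of 98 such features were highest at 120 min, in chk1 mutants 69 of 70, in rad3 sep1 213 of 227 and in wild type 72 of 75. The features highest at 30 min were urg1, urg2 and SPAC521.03 in rad3 and in cds1 mutants, urg2 in chk1 mutants, and urg1 and urg2 in wild type, and no feature was highest at 10 min. These size limits were chosen after the values of the urg genes had been seen. The counts use the ratios without further scaling, whose spread over all features widened from a median SD of 0.307 at 0 min to 0.494 at 120 min. A wider spread leaves more features at least 1 above 0 min at late times. The part of this widening in the counts was not tested.

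**Figure D3:**
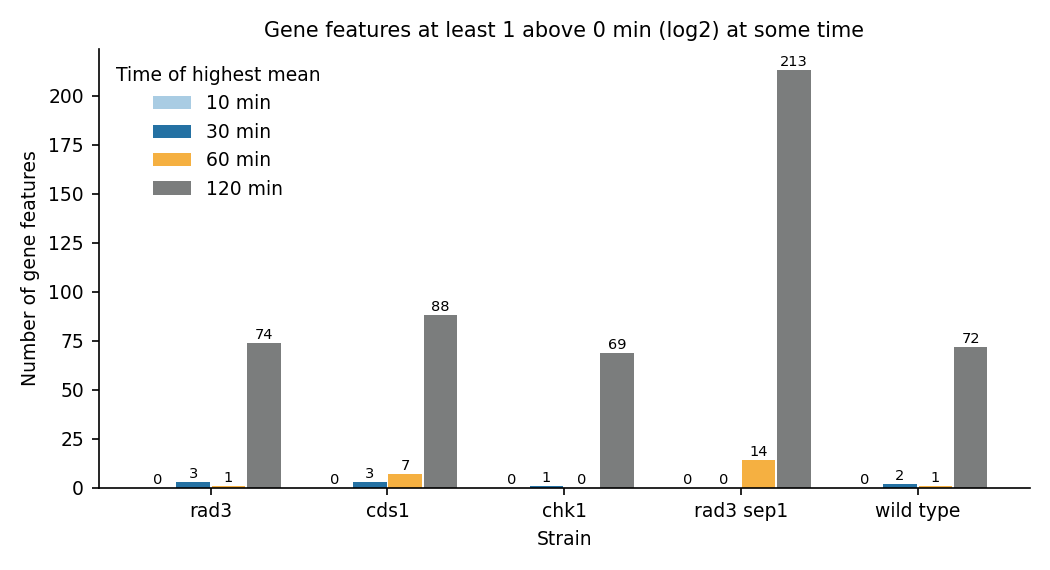
Number of gene features (vertical axis) with a group mean at least 1 above 0 min on the log2 scale at some time, split by the time of their highest mean (10, 30, 60 or 120 min, colours), for each strain (horizontal axis). Most features peak at 120 min, and 3 or fewer per strain, with urg2 among them in all strains but rad3 sep1, peak at 30 min. The ratios had no further scaling, and their spread over all features was widest at 120 min.

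Genes of pyrimidine, urea and nitrogen source use were set beside the urg genes with limma, in which each change was tested over 4921 features with Benjamini-Hochberg adjustment at 0.05. Of 35 such genes the early change passed in 6 in rad3 mutants (5 higher, 1 lower), 1 in cds1 mutants (higher), 3 in chk1 mutants (2 higher, 1 lower), 0 in rad3 sep1 and 1 in wild type (higher). Over all features the early calls were 0.833% higher and 1.4% lower in rad3, 0.406% and 0.122% in cds1, 0.732% and 0.488% in chk1, 0.142% and 0% in rad3 sep1 and 0.671% and 0.102% in wild type. With the replicate number as a block, where same-numbered samples deviated together, the early counts were 2 in cds1 mutants, 6 in chk1 mutants and 3 in wild type, and over all features the calls in either direction were then 2.5% in cds1, 8.29% in chk1 and 2.05% in wild type. Late calls numbered 6 of 35 in rad3 (5 higher, 1 lower), or 11 with the block (31.9% of all features in either direction), 10 in cds1 (5 higher, 5 lower), 13 in chk1 (12 higher, 1 lower), 7 in rad3 sep1 (5 higher, 2 lower) and 11 in wild type (8 higher, 3 lower). Late calls over all features were 10.4% higher and 8.94% lower in rad3, 12.4% and 12.6% in cds1, 12.6% and 14.9% in chk1, 11% and 5.14% in rad3 sep1 and 12.3% and 12.1% in wild type. The median early change of the 35 genes lay between 0.0041 in cds1 mutants and 0.11 in rad3 sep1, against -0.0024 and 0.056 over all features in the same strains.

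The 6 genes of pyrimidine synthesis, ura1 to ura6, were each compared with 0 min in 10 comparisons. The only call was ura1 in chk1 mutants late (0.33), where 12.6% of all features were called higher. That call was lost in 5 of the 14 fits that each left out 1 chk1 sample (0.26 to 0.33), on the second probe alone, with chk1 fitted alone and after quantile normalization. Their median early change was 0.10 in rad3 mutants, -0.02 in cds1 mutants, 0.06 in chk1 mutants, 0.10 in rad3 sep1 and -0.0021 in wild type. The gene of orotidine phosphate decarboxylase, ura4, was low in cds1 mutants at all times, with a mean of -1.11 ± 0.18 (SD, n = 15) against 0.41 in wild type, and the untreated difference was -1.47 ± 0.13 (limma adjusted p = 4.5e-11). That call was 1 of 35 in untreated cds1 mutants, against 0.0813% of features lower there. Higher calls there were 0 of 35, against 0.0406% of features. Untreated rad3 and chk1 mutants had 0 of 35 calls, against 0.914% of features higher and 0.0406% lower in rad3 and 0.102% and 0.0406% in chk1, and rad3 sep1 had 4 higher and 4 lower, against 5.55% and 13.4% of features. A part of ura4 in the urg levels of cds1 mutants was not tested.

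Of the 8 genes for pyrimidine salvage and uptake, the uracil permease gene fur4 had early differences between -0.13 and 0.03 and none passed. The gene uck2, separated from urg1 by the gene toe1, rose early in rad3 mutants by 0.56 ± 0.11 (limma adjusted p = 0.0028), and late in wild type by 0.33 ± 0.12 (adjusted p = 0.0329, limma). The late call was lost in 6 of the 13 fits without 1 wild-type sample (0.28 to 0.34) and on either probe alone, and the early one on the second probe alone (0.47). Its log2 ratio in rad3 mutants was 0.99, 0.75 and 0.41 at 10 min, against 0.03, -0.16 and -0.06 at 0 min. All of these 10 min samples were above all 0 min samples, a separation met by 8.19% of all features in rad3 mutants. At 30 min the uck2 values were 0.30, 0.27 and 0.28. The gene SPBC1683.05, which carries the symbol thi7 and had been listed by its ID, fell late in all 5 strains, with changes of -0.83 in rad3, -0.70 in cds1, -0.73 in chk1, -0.83 in rad3 sep1 and -0.52 in wild type. After quantile normalization it did not pass in rad3 sep1 (-0.61) or wild type (-0.33).

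Among the genes of dUTP and thymidylate metabolism none passed early. The dUTPase gene dut1 rose late in chk1 mutants by 0.57 ± 0.08 (limma adjusted p = 1.57e-07) and in wild type by 0.58 ± 0.08 (limma adjusted p = 1.11e-07), and it fell in cds1 mutants (-0.60 ± 0.07, limma adjusted p = 1.33e-08). Its samples at 120 min were at -0.48, -0.62 and -0.44 in cds1 mutants and at 1.17, 1.17 and 1.03 in wild type. After quantile normalization the increases were 0.18 in chk1 mutants and 0.17 in wild type and did not pass. The gene hal3, whose product includes a thymidylate synthase part, rose late in all 5 strains, by 0.50 in rad3, 0.57 in cds1, 0.42 in chk1, 0.81 in rad3 sep1 and 0.36 in wild type, but not in rad3 sep1 after quantile normalization (0.33) or on the first probe alone (0.72), nor in chk1 (0.25) and wild type (0.27) on the second. Among the 4 urea genes there was no early call. Late, ure4 was called lower in cds1 mutants and wild type, and SPBC23G7.13c higher in cds1 mutants. Leaving out 1 sample changed the wild-type ure4 call in 3 of 13 fits and the SPBC23G7.13c call in 4 of 15. Over all features 10.4% to 12.6% were called higher late and 5.14% to 14.9% lower, depending on the strain. The urease gene ure2 rose late in all 5 strains by 0.39 to 0.46 on the log2 scale. On its second probe alone the late ure2 change in rad3, cds1, chk1 and rad3 sep1 did not pass. In rad3 sep1 it also failed after median centring or quantile normalization and without the first array at 120 min (0.44) or the second at 0 min (0.37).

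Of the 13 nitrogen source genes only amt1, put4 and isp5 were called early, all higher. The counts were 3 in rad3, 1 in cds1, 2 in chk1, 0 in rad3 sep1 and 1 in wild type. Over all features 0.142% to 0.833% were called higher early, depending on the strain. The ammonium transporter gene amt1 rose early by 0.64 ± 0.09 in rad3 mutants (limma adjusted p = 5.82e-06), 0.36 ± 0.09 in cds1 mutants (0.0333), 0.67 ± 0.09 in chk1 mutants (1.28e-06) and 0.44 ± 0.09 in wild type (0.00542). Its log2 ratios in rad3 mutants were -0.08, 0.00 and -0.02 at 0 min, 0.90, 0.84 and 0.64 at 10 min, and 0.41, 0.33 and 0.50 at 30 min. Later it read -0.02 and 0.13 at 60 min and -0.01, -0.04 and -0.02 at 120 min. The 10 min samples of amt1 were above those of every other time in rad3 mutants, and no late sample exceeded 0.13. The share of all features with such a separation was not counted. In wild type amt1 was at 0.45, 0.42 and 0.38 at 10 min, against 0.02, -0.13 and -0.25 at 0 min. The cds1 call was lost in 7 of the 15 fits that each left out 1 cds1 sample, on either probe alone and with cds1 fitted alone. The wild-type call was lost without the 0 min replicate 3 (0.37) and on either probe alone, and the rad3 call on the second probe alone (0.47). The proline permease gene put4 rose early in rad3 mutants by 0.69 ± 0.11 (limma adjusted p = 0.000192) and in chk1 mutants by 0.60 ± 0.11 (limma adjusted p = 0.0014), and the amino acid permease gene isp5 rose early in rad3 mutants by 0.48 ± 0.10 (limma adjusted p = 0.00305). On either probe alone isp5 did not pass, and on the first alone put4 did not pass in chk1 mutants (0.52). Late, the glutamate dehydrogenase gene gdh2 rose by 0.82 ± 0.20 in rad3 mutants, 0.53 ± 0.19 in cds1 mutants, 1.48 ± 0.20 in chk1 mutants and 1.26 ± 0.20 in wild type. It was not called late in rad3 sep1. Of the 13 nitrogen source genes, late calls were 2 higher in rad3, 6 higher in chk1 and 2 higher in rad3 sep1. In cds1 they were 2 higher and 2 lower (amt2 and gln1), and in wild type 3 higher and 1 lower (gaf1). Over all features 10.4% to 12.6% were called higher late and 5.14% to 14.9% lower. Leaving out 1 sample changed the gln1 call in 12 of 15 fits, amt2 in 6 of 15 and gaf1 in 5 of 13. The gdh2 calls in rad3 and cds1 mutants did not pass after quantile normalization (0.40 in rad3 and 0.01 in cds1). Neither probe gave the cds1 call by itself, and 5 of the 15 fits without 1 cds1 sample lost it, with 0.33 without the 0 min replicate 2 and 0.46 to 0.52 in the others.

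**Figure D4:**
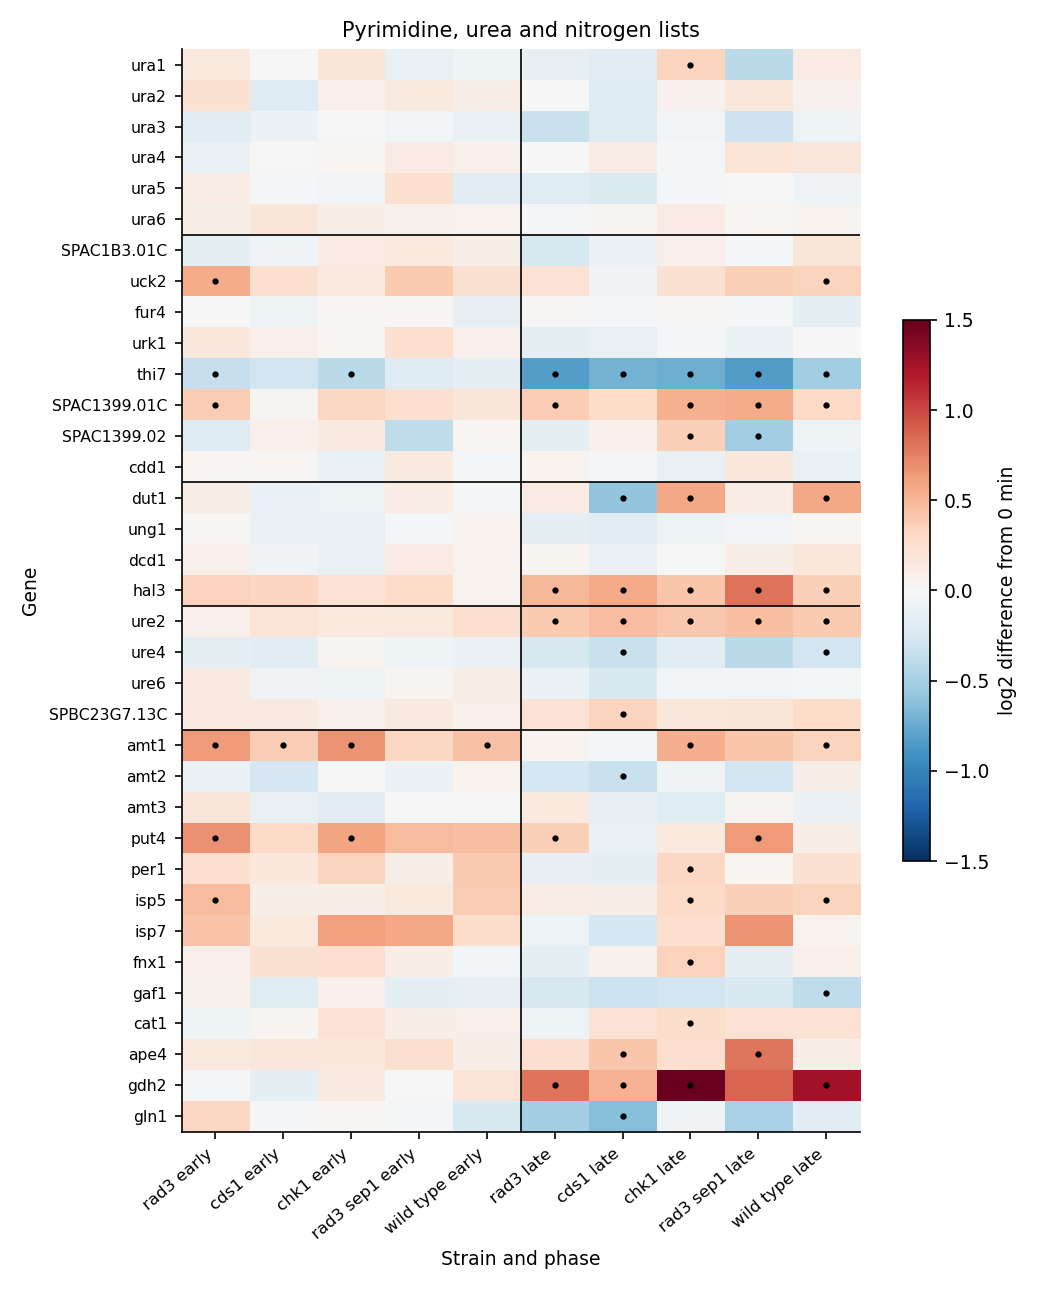
Log2 difference from 0 min (colour, red higher and blue lower) of 35 genes (rows) early and late in each strain (columns), in 5 blocks from top to bottom: pyrimidine synthesis, salvage and uptake, dUTP and thymidylate, urea use, and nitrogen source use. Dots mark limma adjusted p under 0.05. Early dots lie mainly in amt1, put4 and thi7, and the late columns have more.

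No gene beside the urg genes changed by as much as urg1 or urg2 in any strain. The probes cover 13 of the 14 protein-coding genes from psu1 to SPAC1399.01c. Among the 10 neighbours, 5 on each side of the urg genes, limma called 2 early in rad3 mutants, uck2 and SPAC1399.01c (0.38), and 0 early in cds1, chk1, rad3 sep1 and wild type. Over all features 0.833% were called higher early in rad3 mutants and 0.142% to 0.732% in the other strains. Early calls of a lower level covered 0% to 1.4% of features. The SPAC1399.01c call was lost in 10 of the 14 fits without 1 rad3 sample, with 0.23 without the 0 min replicate 3 and 0.34 to 0.42 in the others, and also on either probe alone and with rad3 fitted alone. The median early change of the neighbours was 0.04 in rad3 mutants, -0.01 in cds1, 0.10 in chk1, -0.09 in rad3 sep1 and 0.02 in wild type, and that of all features lay between -0.0024 and 0.056. The genes directly at the edges, tna1 beside urg2 and toe1 beside urg1, had early differences of -0.23 to 0.04 and of -0.20 to 0.29 across strains, in that order, none of which passed. Over all features the late calls were 10.4% higher and 8.94% lower in rad3, 12.4% and 12.6% in cds1 and 12.6% and 14.9% in chk1. In rad3 sep1 they were 11% and 5.14%, and in wild type 12.3% and 12.1%. Late, limma called 1 neighbour higher and 1 lower in rad3 mutants (SPAC1399.01c and psu1), 0 in cds1 mutants, 3 higher in chk1 mutants (tna1, SPAC1399.02 and SPAC1399.01c), 1 higher and 1 lower in rad3 sep1 (SPAC1399.01c and SPAC1399.02) and 3 higher in wild type (tna1, uck2 and SPAC1399.01c). Of these late calls, leaving out 1 sample of the strain, or 1 array in rad3 sep1, ended all but the tna1 calls and that of SPAC1399.01c in chk1 mutants in at least 1 fit. Among the calls lost were SPAC1399.01c in wild type in 7 of 13 fits (0.26 to 0.33), psu1 in 3 of 14 (-0.31 to -0.37) and SPAC1399.01c in rad3 mutants without the 0 min replicate 3 (0.23). The tna1 rise, 0.47 in chk1 mutants and 0.40 in wild type, compares with 1.72 in chk1 mutants and 1.91 in wild type for urg2 late.

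**Figure D5:**
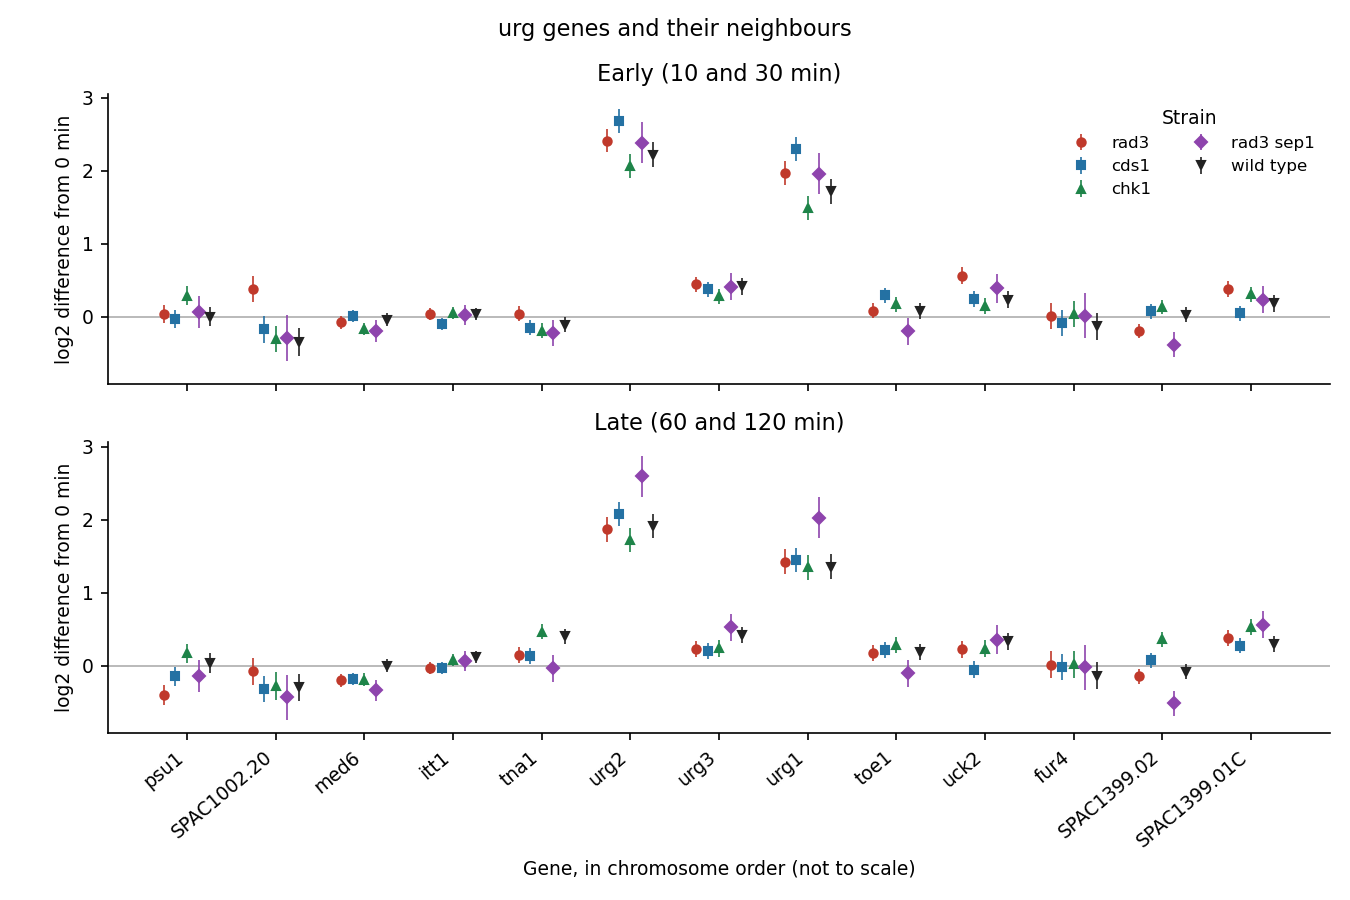
Log2 difference from 0 min (vertical axis) of the urg genes and the 5 genes with a probe on each side (horizontal axis, in chromosome order, not to scale), early (upper panel) and late (lower panel), in 5 strains. Points are estimates and bars their SE. The urg1 and urg2 points are at 1.35 or higher in every strain, and the highest neighbour point is at 0.56.

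The group means of urg1 and urg2 ran alike, and those of urg3 followed them less closely. Over the 25 group means r was 0.930 between urg1 and urg2, 0.805 between urg1 and urg3 and 0.876 between urg2 and urg3. The 2 probes of urg3 disagreed (r = -0.296), so its r values and its part in the mean of the 3 genes are uncertain. A value at 60 min below those at 30 and 120 min was found for urg3 in 2 of 13 series. Of 4806 other features with 1 symbol, those most like the mean of the 3 genes over the 25 group means were SPAC521.03 (r = 0.735), ecm29 (0.729), sen1 (0.723), cpy1 (0.715), isp6 (0.703), dal81 (0.701), amt1 (0.700), uro1 (0.693), fmo1 (0.691) and pmc1 (0.686). Among these, cpy1 and isp6 encode vacuolar peptidases, ecm29 a proteasome-associated protein and uro1 a urate oxidase. The early difference of SPAC521.03 was 0.99 in rad3, 0.95 in cds1, 0.81 in chk1, 1.04 in rad3 sep1 and 0.76 in wild type, below those of urg1 and urg2 in each strain. The 2 probes of sen1 disagreed (r = -0.459), so its place is uncertain. The least alike were ctu1 (r = -0.723), cdh1 (-0.689) and rlp1 (-0.683). The points of these correlations share arrays, strains and times, and after quantile normalization 5 of the 10 most alike remained among the first 10, and 3 on the first probe alone. Without the rad3 sep1 groups 5 of the 10 also remained (20 group means), and ecm29 (rank 26), amt1 (21), pmc1 (19), isp6 (14) and uro1 (11) left them.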

How the data were processed

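The deposited values were log2 ratios of Cy5 (sample) to Cy3 (RNA of untreated wild type), per the labels, on 70 arrays with 9858 probe rows. That they are log2 was settled from the values, and no source used here names the authors' normalization. Such ratios carry no depth, and the number of arrays limits the precision. No further scaling was applied. The 2 probes of each of 4929 features were averaged, and a feature had to be measured on 2 or more arrays in each group to be tested, as 4921 were. Array pairs whose difference did not repeat between probes (r under 0.1; 9 of 65 pairs) were averaged, which left 61 samples in 25 groups. The series text calls the repeats biological.

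Groups were fitted together with limma 3.58.1 in R 4.3.3 (lmFit and eBayes, Benjamini-Hochberg adjustment, threshold 0.05), a procedure checked on simulated data. The simulated samples varied independently of each other, so that check could not cover samples of a strain that deviate together. Early averages the changes from 0 min at 10 and 30 min, and late those at 60 and 120 min. A single rad3 sep1 sample per time was assumed to vary like the other strains. Python 3.11.15 was used with pandas 2.3.3, numpy 2.4.6 and, for figures, matplotlib 3.10.9. The members, the gene lists and the comparisons were chosen with earlier results of these data known. Of the listed names, those without a match to 1 probe feature were left out, and 35 genes remained, matched by symbol, synonym or ID through the RefSeq gene table. The named genes are the urg genes, members of the lists, 5 neighbours on each side with a probe, and the 10 most and 3 least alike features by Pearson r; a motif search in promoters was not run.

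Same-numbered samples of a strain at different times deviated from their group means together (r over 0.1) in every pair for the early comparison in cds1, chk1 and wild type and for the late one in rad3, cds1 and chk1, but not for rad3 early (7 of 9 pairs) or wild type late (4 of 5). The series text and titles give no other basis for the pairing. Alternatives were median centring, quantile normalization, each probe alone, 70 separate arrays, a replicate block, other filters on missing values, 1 strain per fit, and leaving out each sample. In rad3 sep1 each array of a pair was left out in turn, and the sample stayed in through the other array.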

Additional observations from a re-analysis of the deposited data

Results flagged for a closer look

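The change from the early times to 120 min, taken as the value at 120 min minus the mean of 10 and 30 min, went in opposite directions in several pairs of strains, with every 120 min sample of one strain below its early mean and every one of the other above it. None of these differences was tested, and those with rad3 sep1 rest on 1 sample. For urg1 the change averaged -0.39 in rad3 mutants (-0.58 to -0.01, n = 3) and -0.57 in cds1 mutants (-0.75 to -0.31, n = 3), against 0.23 in chk1 mutants (0.04 to 0.40, n = 3) and 0.95 in rad3 sep1. The difference of rad3 minus chk1 was -0.62, of rad3 minus rad3 sep1 -1.34, of cds1 minus chk1 -0.80 and of cds1 minus rad3 sep1 -1.52. In chk1 mutants the urg1 rise lay mainly on the first probe, with means of 0.53 at 10 and at 30 min and 0.98 at 120 min. On the second probe the means were 1.51, 1.76 and 1.65 at these times. A 120 min sample there read 1.45, below both early means. For urg2 the difference was -1.64 for rad3 minus rad3 sep1 and -1.42 for cds1 minus rad3 sep1, and for urg3 it was -0.43 and -0.33. The urg3 rise in rad3 sep1 was seen on the second probe only, with 0.46, 0.67 and 1.09 at 10, 30 and 120 min. On the first probe the values were 0.02, 0.13 and -0.18. The opposite directions were not seen after quantile normalization, where the mean urg1 change was -0.98 in rad3, -1.31 in cds1, -0.32 in chk1 and -0.43 in rad3 sep1, and in rad3 sep1 the mean change was -0.26 for urg2 and -0.03 for urg3. Wild type had samples on both sides, from -0.43 to 0.38 for urg1. Groups of 3 or fewer samples were too small for a check of single outlying samples.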

How the results depend on the processing

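The early difference of the mean of urg1, urg2 and urg3 stayed above 0 in every strain under all alternatives run. It was rad3 1.61, cds1 1.79, chk1 1.28, rad3 sep1 1.59 and wild type 1.45. On the first probe alone it was rad3 1.22, cds1 1.26, chk1 0.86, rad3 sep1 1.23 and wild type 1.04, and on the second rad3 1.99, cds1 2.31, chk1 1.69, rad3 sep1 1.94 and wild type 1.87. Quantile normalization gave rad3 1.46, cds1 1.97, chk1 1.57 and wild type 1.90. Late minus early was then rad3 -0.73, cds1 -0.95, chk1 -0.52, rad3 sep1 -0.53 and wild type -0.77, against rad3 -0.43, cds1 -0.54, chk1 -0.17, rad3 sep1 0.13 and wild type -0.22 as reported. Early pathway calls were rad3 6, cds1 1, chk1 3, rad3 sep1 0 and wild type 1. They were 3 in rad3, 0 in cds1, 1 in chk1 and 0 in wild type on the first probe, 1 in rad3, 0 in cds1 and 0 in wild type on the second, 4 in wild type after quantile normalization, with 70 arrays 4 in wild type and 2 in rad3 sep1, and 0 in cds1 fitted alone. Late calls (rad3 6, cds1 10, chk1 13, rad3 sep1 7 and wild type 11) were 6 in cds1, 8 in chk1, 3 in rad3 sep1 and 5 in wild type on the first probe, 3 in rad3, 6 in cds1, 7 in chk1, 3 in rad3 sep1 and 4 in wild type on the second, 3 in rad3 and 0 in rad3 sep1 after quantile normalization, and 14 in rad3 sep1 with 70 arrays. Untreated, rad3 had 1 after quantile normalization, and the 8 of rad3 sep1 became 3 on either probe and 16 with 70 arrays. With the replicate block the pathway counts were 3 (wild type early), 2 (cds1 early), 6 (chk1 early) and 11 (rad3 late). The block changed no other pathway count by over 1.5 times, and it could not be fitted for rad3 sep1. Leaving out 1 sample gave early counts of 4 to 6 in rad3, 0 to 1 in cds1, 2 to 3 in chk1 and 0 to 2 in wild type. Late counts were then 4 to 7 in rad3, 6 to 10 in cds1, 8 to 13 in chk1 and 6 to 12 in wild type. The causes were not tested, apart from fewer samples in these fits. In rad3 sep1 only 1 array of a pair was left out and the other kept, so its sample stayed in. Late counts there were 6 to 8, a range that cannot show dependence on a sample. Untreated rad3 sep1 against wild type had 2 to 9 over fits without such an array or without 1 sample of wild type or rad3 mutants. Calls over all features ranged widely too, early from 24 to 519 in rad3 (110 as reported), 11 to 123 in cds1 (26), 22 to 408 in chk1 (60), 2 to 162 in rad3 sep1 (7) and 12 to 101 in wild type (38).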

Other observations

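A drop of at least 0.3 at 60 min below both 30 and 120 min, among features that were at least 1 above 0 min at some time, was met by urg1 in all 5 strains and by urg2 in cds1, chk1 and rad3 sep1. The other features with this shape were SPAPB1A11.03, mug4 and nrg1 in rad3 sep1 and SPBPB2B2.05 in wild type. These limits and names were chosen after the values had been seen, and no test was made.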
